A study of Mus musculus with 16 samples.

Results

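The proteins of the small (40S) ribosomal subunit were examined through their mRNAs. Names of the form Rps followed by a number, with a final a, x, l or y2 allowed, were taken from the expression table together with Rpsa and Fau. Rps27a, which encodes a fusion of ubiquitin to a ribosomal protein, and names marked as pseudogenes were set aside. This gave 35 entries under 32 gene names, out of 28618 entries under 27987 names. Rps10, Rps28 and Rps4l each had more than 1 entry, and Rps3a was not among the matched names. Values are in FPKM, fragments scaled by transcript length and by the mapped fragments of the library, so levels of different members are compared per length.

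The study asked how maternal loss of the 20S proteasome subunit PSMA7 affects oocytes and their transition to the embryo. RNA was sequenced from oocytes at the germinal vesicle (GV) stage, which have not yet resumed meiosis. It was also sequenced from ovulated eggs labelled as metaphase II (MII). Each stage had 4 WT and 4 Psma7 cKO libraries, 16 in all, each labelled as a biological replicate. The labels do not say whether these came from separate females, so p-values measure the spread between pools. The paper reports that part of the ovulated Psma7 cKO oocytes stayed at the GV stage or stopped during meiosis I. How cells were picked for the egg pools is not given in the sources used here. Whether the Psma7 cKO egg pools held cells of other stages was not tested.

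WT females are labelled only as wildtype, and Psma7 cKO females as Zp3-Cre with 2 floxed Psma7 alleles. Zp3-Cre is expressed in growing oocytes, so the surrounding follicle cells keep Psma7, and the deletion precedes both stages. All females were 3 to 4 weeks old and had received 5 IU PMSG. GV oocytes were collected 44 h later. For eggs, hCG was injected at 44 h, and eggs were flushed from the oviduct 14 to 16 h after that and freed of cumulus cells with 0.3% hyaluronidase. The labels give 5 oocytes per library, and the methods of the study give a larger pool. cDNA was made by Smart-seq2 from oligo-dT, which requires a poly(A) tail long enough to prime. ERCC spike-in RNA was added to the lysate, but the table holds 0 ERCC entries. A value is therefore a share of a library's polyadenylated RNA, and fewer molecules per cell, a shorter poly(A) tail and a change in the rest of the RNA cannot be told apart.

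The 40S subunit binds mRNA and decodes it, and it is built from the 18S rRNA and one copy of each small subunit protein. The mRNAs of ribosomal proteins belong to the terminal oligopyrimidine (TOP) class, which starts with a C followed by a run of pyrimidines and whose translation is coupled to growth signalling. Fully grown oocytes stop transcription, and during meiotic maturation many stored mRNAs are deadenylated and degraded, while others are polyadenylated through elements in their 3′ UTR and translated.

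The first bases of a few members are shown because the TOP class is defined there. Each window holds 18 bases before the RefSeq start and 12 from it (GRCm38.p6), written along the transcribed strand, and capitals mark the longest unbroken run of C and T near the start. The promoter table held 24 of the 32 members.
Rpsa (chr9:120127748-120127777, plus strand): gctgtgggttatttaaggacgtcaTTTCCg
Rps13 (chr7:116334179-116334208, minus strand): cgcgagagcaaacgTCggtgagtggcgtca
Rps3 (chr7:99483698-99483727, minus strand): acacttgcaagggTCgccgcgctgcgcggc
Rps27 (chr3:90213637-90213666, minus strand): aggatttccgctttcgCTCCTTTCCggcgg
Rps27l (chr9:66946068-66946097, plus strand): tctccaCTCCTCCCCgccgcctctatcccg
Fau (chr19:6057929-6057958, plus strand): acgtgcgcgcccccaCTTCTTCCTCTTTCT

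Fau and Rps27 had a run of pyrimidines across the annotated start, and Rps27l had one ahead of it. Rpsa had a short run after it, and Rps13 and Rps3 had none longer than a pair of bases. A run of at least 7 C or T within 10 bases of the start was present in 13 of the 24 members, or 54.2%, compared with 20.1% of all 27025 promoters in the table. The annotated starts may lie off the starts used in oocytes, so the runs describe these letters only.

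The ends of 3 members are shown next because maturation acts on the poly(A) tail. Each line gives 30 bases near the annotated 3′ end (GENCODE M21, GRCm38). Capitals mark TTTTAT or TTTTAAT, the letters of a cytoplasmic polyadenylation element, in Rps27l and Rps2, and the AATAAA signal in Rps27.
Rps27 (chr3:90212671-90212700, minus strand): gaaccttcccAATAAAcacgttttggatat
Rps27l (chr9:66949483-66949512, plus strand): gtcagtttttcaataaagTTTTAATtatgg
Rps2 (chr17:24721879-24721908, plus strand): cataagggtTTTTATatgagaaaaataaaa

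The letters TTTTAT or TTTTAAT, searched on the transcribed strand in the last 100 bases, were found in Rps27l and Rps2 and in none of the other 30 members. The share, 6.25%, was below the 15.2% of 21875 coding genes. The search used an annotated transcript chosen for each gene, from 345 to 5130 bases long (Rps15a the longest) with a median of 647. These ends may not be the ones used in oocytes. Both genes with a match are described below, since their levels did not fall in WT eggs. Rps15a and the first Rps28 entry did not fall either and had no match. A link between these letters and the levels was not tested.

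Sequencing depth, estimated from the smallest steps between FPKM values, was 10.5 to 15.7 M fragments per library. Psma7 was measured first as a check of the genotype. It stood at 154, 142, 201 and 164 FPKM in the WT GV libraries and at 14.6, 14.7, 11.1 and 17.98 FPKM in the Psma7 cKO GV libraries, which did not overlap. In eggs it was 118, 116, 97.7 and 172 FPKM in WT and 13.6, 50.3, 35.0 and 59.9 FPKM in Psma7 cKO, again without overlap. All 15 oocyte genes checked, such as Zp3, averaged at least 1 FPKM in every group. Of 21 cumulus and granulosa entries, 4 or 5 averaged at least 1 FPKM in each group, led by Esr2, and their sum ranged from 60.1 to 75.1 FPKM over all libraries. The entries of this list went both ways. Ptx3 was at most 0.077 FPKM and Tnfaip6 at most 0.043 FPKM. Cyp19a1, a granulosa gene, was 6.2 to 10.2 FPKM in GV oocytes and 12.0 to 15.2 FPKM in eggs. Kitl was 3.2 to 7.2 FPKM and Nr5a2 1.9 to 3.9 FPKM over all libraries. The part of other cells in the results was not tested. The 4 blood and immune entries summed to between 1.14 and 10.9 FPKM.

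In GV oocytes the small subunit mRNAs did not differ detectably between genotypes. The summed level of the members was 1867 ± 341 FPKM (SD, n = 4) in WT and 1890 ± 397 FPKM (SD, n = 4) in Psma7 cKO GV oocytes. Of 30 entries with a mean of at least 1 FPKM, 0 were higher and 0 lower in Psma7 cKO by limma at a Benjamini-Hochberg adjusted p below 0.05, where 0.0994% of all 11062 entries tested were called higher and 0.0181% lower. At an unadjusted p below 0.05, 0 members were higher, beside 7.62% of all entries. The log2 fold changes of 28 of the 30 members lay within 0.25 of 0, with 95% intervals that reached from -0.80 to 0.80 at the widest. Their median was 0.00, beside 0.04 over all entries. No member was without overlap between the genotypes, compared with 4.25% of entries higher and 2.42% lower without overlap.

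Within each genotype the GV libraries differed together. WT GV replicate 3 was the highest of its group for 29 of the 30 tested members, and replicate 2 the lowest for 21. Among Psma7 cKO GV libraries, replicate 4 was the highest for 25 and replicate 3 the lowest for 22. The 3 members with the largest difference in GV oocytes are given as values, since none passed. The second Rps10 entry, a head protein, was 2.70, 11.4, 23.5 and 10.8 FPKM in WT and 20.7, 16.3, 13.6 and 17.5 FPKM in Psma7 cKO GV oocytes, a log2 fold change of 0.84 (SE 0.50, limma adjusted p = 0.607). One WT library was far below the other 7 libraries, and the remaining values overlapped. Rps15, which lies near the decoding site of the head, was 0.620, 1.24, 1.73 and 1.69 FPKM in WT and 0.620, 1.08, 0.810 and 1.05 FPKM in Psma7 cKO (log2 fold change -0.42, SE 0.19, adjusted p = 0.476). These values are close to the floor of 1 FPKM, and they overlapped. Rps27l, the third, is given with its paralogue Rps27 below.

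Most small subunit mRNAs fell in relative level as WT oocytes matured. Of 29 entries tested, 25 were lower in eggs than in GV oocytes and 3 were higher (limma, adjusted p below 0.05), where 52.4% of all 10475 entries were called lower and 26.1% higher. The members' median log2 fold change was -2.17, beside -0.44 over all entries. Rescaling libraries by their median ratio moved the median of all entries to -0.23, with 24 members lower and 4 higher. Rps18, Rps19, Rps20 and Rps27 entered this test through the GV oocytes alone, since their WT egg means were under 1 FPKM, so they had to be lower in eggs. Among the 25 members at 1 FPKM or more in both groups, 21 were lower, 3 were higher and the median was -2.10. In 22 of the 29 tested members each WT egg library was below each WT GV library, beside 48.7% of all entries tested. Among entries at 1 FPKM or more in both groups these figures were 18 of 25 members and 42.6%. Averaged over libraries, 12 of the 29 fell more than 10-fold, beside 7.31% of all entries tested, and 8 of the 25 beside 3.5% of entries at 1 FPKM or more in both groups. The summed level dropped to 883 ± 91.7 FPKM (SD, n = 4) in WT eggs.

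Rps27, Rps23 and Rpsa were among the members with the largest falls. Rps27, a zinc-binding protein of the platform side, was 31.1, 28.1, 43.2 and 30.6 FPKM in WT GV oocytes and 0.844, 1.07, 0.364 and 0.528 FPKM in WT eggs, a log2 fold change of -5.01 (SE 0.14, limma adjusted p = 6.8e-10). All egg libraries were far below all GV libraries, and some egg values were under the floor, so the true fall may be larger. Rps23, which sits at the decoding centre, was 33.2, 24.7, 36.4 and 37.4 FPKM in WT GV oocytes and 1.31, 2.095, 1.26 and 2.19 FPKM in WT eggs (log2 fold change -4.29, SE 0.21, adjusted p = 1.73e-08). Rps23 had 11 near-identical copies in the annotation. The 5 of these that are in the table summed to 68.9 FPKM in WT GV oocytes and 42.4 FPKM in WT eggs, more than Rps23 itself, and with the copies added the Rps23 change was -1.21.

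Rpsa encodes the laminin receptor precursor and ribosomal protein SA, which lies on the solvent side of the subunit near the mRNA exit. It was 22.3, 15.9, 26.1 and 25.3 FPKM in WT GV oocytes and 28.2, 27.0, 16.3 and 32.6 FPKM in Psma7 cKO GV oocytes. In WT eggs it was 0.826, 1.47, 1.65 and 0.937 FPKM, and in Psma7 cKO eggs 13.1, 7.32, 15.8 and 7.80 FPKM. The GV libraries of both genotypes overlapped, whereas the lowest Psma7 cKO egg was more than 4 times the highest WT egg. WT eggs had 5.45% of the WT GV mean and Psma7 cKO eggs 42.2% of the Psma7 cKO GV mean. The fall in WT was -4.14 on the log2 scale (SE 0.21, limma adjusted p = 2.33e-08) and in Psma7 cKO -1.28 (SE 0.29, adjusted p = 0.00324).

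**Figure D1:**
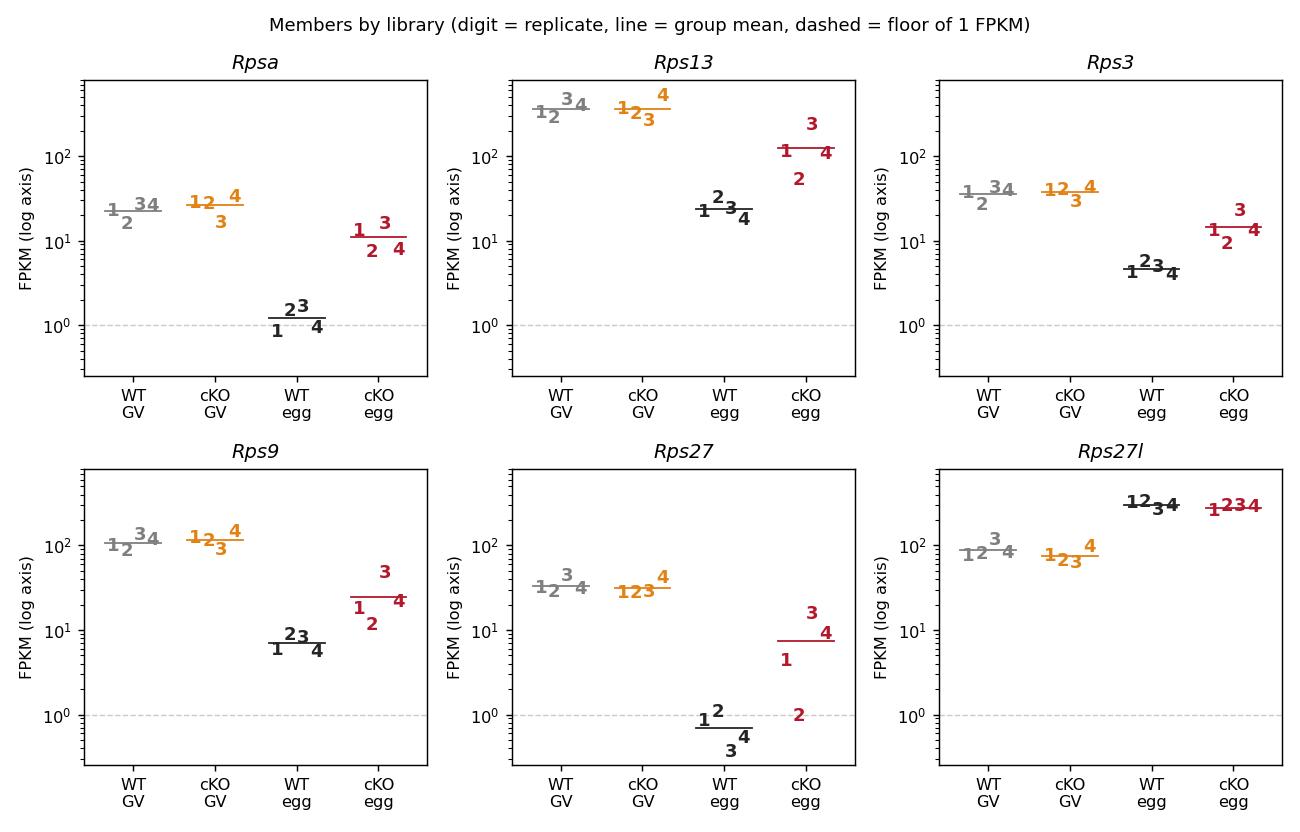
FPKM (log axis) of 6 members in each of the 16 libraries, by genotype and stage, with digits for replicate numbers, lines for group means and a dashed line at the floor of 1 FPKM. Rpsa, Rps13, Rps3 and Rps9 overlapped between the GV groups and were higher in all 4 Psma7 cKO eggs than in all 4 WT eggs, Rps27 overlapped through Psma7 cKO egg replicate 2, and Rps27l was highest in eggs of both genotypes.

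A fall was also seen in Psma7 cKO oocytes, in 22 of 29 tested members, with 4 higher, where 51.0% of 10748 entries were called lower and 23.0% higher. The median of the members was -1.28, beside -0.42 over all entries. Rescaling moved the latter to -0.18 and the members' calls to 21 lower and 4 higher, while the calls over all entries went from 5482 lower and 2472 higher to 4641 lower and 3313 higher. In 17 of the 29 tested members each Psma7 cKO egg library was below each Psma7 cKO GV library, beside 47.2% of all entries tested. Between means 0 of the 29 fell more than 10-fold, beside 1.80% of all entries tested. Rps18 entered through the GV oocytes alone, and without it 21 of 28 members were lower. Rps12, Rps16 and Rps29 were called lower in WT but not in Psma7 cKO, which does not show by itself that these 3 differed between genotypes. The summed level was 1367 ± 256 FPKM (SD, n = 4) in Psma7 cKO eggs.

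Among the largest falls in Psma7 cKO were those of Rps23, Rps6, Rps27 and Rps20. Rps23 was 29.2, 34.2, 30.7 and 54.1 FPKM before and 3.31, 2.96, 8.97 and 4.66 FPKM after maturation (log2 fold change -3.00, SE 0.34, limma adjusted p = 4.93e-05), and with its near-identical copies added the change was -1.05. Rps6, the substrate of S6 kinase, was 141, 138, 107 and 155 FPKM in Psma7 cKO GV oocytes and 14.6, 12.1, 44.6 and 26.1 FPKM in their eggs (-2.65, SE 0.36, adjusted p = 0.000147). In WT, Rps6 went from 134, 102, 162 and 130.3 FPKM to 13.5, 13.6, 9.32 and 16.5 FPKM, and the eggs of both genotypes overlapped. Rps20, a head protein, was 10.6, 8.76, 7.75 and 13.2 FPKM in Psma7 cKO GV oocytes and 0.929, 0.705, 3.99 and 1.92 FPKM in Psma7 cKO eggs (-2.57, SE 0.42, adjusted p = 0.000436). In WT it was 9.56, 6.77, 11.7 and 8.80 FPKM in GV oocytes and 0.798, 0.635, 0.284 and 0.330 FPKM in eggs. Replicate 3 was the highest Psma7 cKO egg for each of these 4 genes.

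**Figure D2:**
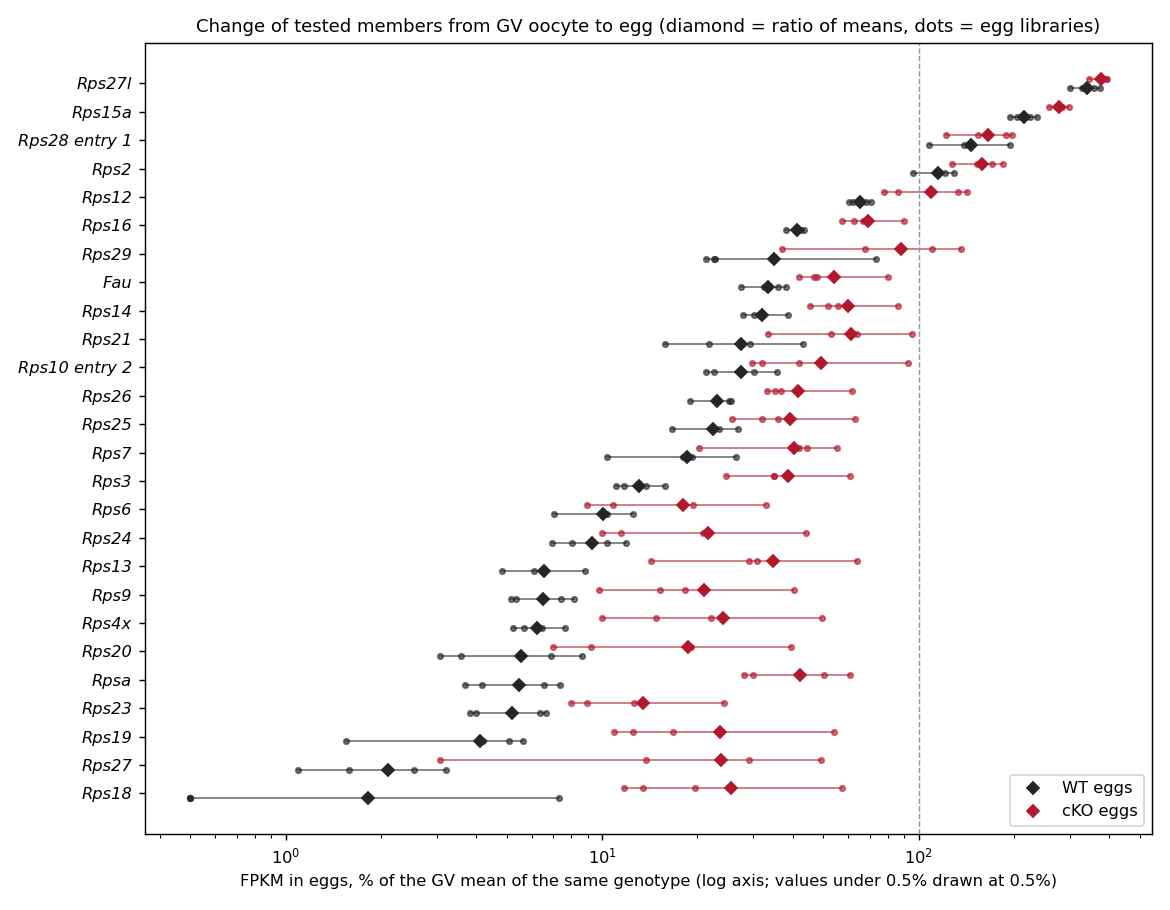
FPKM in eggs as a percentage of the GV mean of the same genotype (log axis) for 26 of the 29 members tested, with dots for the 4 egg libraries, diamonds for the ratio of means and a dashed line at 100%. WT diamonds run from about 2% to 340%, and the Psma7 cKO diamond lies to the right of the WT diamond for each member shown.

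In eggs, part of the small subunit mRNAs were higher in Psma7 cKO than in WT, with Rpsa in front. Of 28 tested members, 12 were higher and 0 lower by limma (adjusted p below 0.05), or 42.9%, compared with 6.53% of all 9492 entries called higher and 1.49% called lower. At an unadjusted p below 0.05, 21 members were higher, where 20.6% of entries were. The median log2 fold change was 0.88 over the members, beside 0.07 over all entries, and 27 of the 28 values were positive. Without overlap between genotypes, 16 members were higher and 0 lower, compared with 13.6% and 7.06% of all entries. Rps19, Rps20 and Rps27 entered the test through the Psma7 cKO eggs alone, since their WT egg means were under 1 FPKM, so they had to be higher in Psma7 cKO. None of these 3 was called, and among the 25 members at 1 FPKM or more in both groups 12 were called higher, 19 were higher at an unadjusted p below 0.05 and 15 were higher without overlap, beside 12.8% of entries at 1 FPKM or more in both groups.

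Rpsa had the largest difference of the members in eggs, with a log2 fold change of 3.06 (SE 0.29, 95% interval 2.42 to 3.71, limma adjusted p = 0.00572). It ranked 4th from the highest by log2 fold change among the 9492 entries tested. The two-sided exact permutation test gave p = 0.0286, the smallest that 4 libraries against 4 allow. Rpsa passed the limma threshold in each of the 8 fits that left out 1 egg library, with adjusted p from 0.00325 to 0.0441. It also passed in all 10 other settings tried. Summing entries by name or adding near-identical copies could not change the Rpsa values, since the table held no other entry or copy of it. In GV oocytes the same comparison gave 0.20 (95% interval -0.28 to 0.68, adjusted p = 0.803).

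Rps13, a body protein that forms a bridge to the large subunit, was 22.1, 31.9, 23.8 and 17.5 FPKM in WT eggs and 112, 51.8, 232 and 106 FPKM in Psma7 cKO eggs (log2 fold change 2.23, SE 0.39, limma adjusted p = 0.0232). The Psma7 cKO eggs were all above the WT eggs, with replicate 3 the highest. It was the most abundant member per length in GV oocytes, at 324, 281, 456 and 387 FPKM in WT and 360.1, 318, 261 and 513 FPKM in Psma7 cKO. Its share of the members' summed FPKM went from 19.4% in WT GV oocytes to 2.70% in WT eggs, and was 9.17% in Psma7 cKO eggs.

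Rps9, a body protein near the mRNA entry, was 5.76, 8.74, 8.00 and 5.56 FPKM in WT eggs and 17.7, 11.4, 47.0 and 21.2 FPKM in Psma7 cKO eggs, a log2 fold change of 1.62 (SE 0.38, limma adjusted p = 0.0385). The genotypes did not overlap in eggs, and in GV oocytes they did, at 97.5, 85.7, 131 and 116 FPKM in WT and 123, 113, 87.1 and 142 FPKM in Psma7 cKO. Rps3, a head protein at the mRNA entry that also has a role in DNA repair, was 4.17, 5.64, 4.91 and 3.96 FPKM in WT eggs and 13.1, 9.17, 22.7 and 13.0 FPKM in Psma7 cKO eggs (1.57, SE 0.25, adjusted p = 0.0203). Its GV values were 36.6, 26.1, 41.5 and 38.7 FPKM in WT and 38.6, 39.97, 28.9 and 42.0 FPKM in Psma7 cKO. For Rps3 too, the eggs separated by genotype and the GV oocytes did not.

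Other members called higher in Psma7 cKO eggs included Rps12 (log2 fold change 0.89), Rps14 (0.85), Rps26 (0.82), Rps16 (0.71), Rps2 (0.60) and Rps15a (0.44). Rps23 was also called, at 1.44 (adjusted p = 0.043), but with its near-identical copies added the difference was 0.12 and was not called (adjusted p = 0.444). Rps27 (2.27, adjusted p = 0.0733) and Rps4x (1.52, adjusted p = 0.0553) had large differences that did not pass. The calls rested on the libraries included. Without WT egg replicate 1, 3 or 4, Rpsa was the only member called, and without WT egg replicate 2 there were 4 calls. Leaving out Psma7 cKO egg replicate 1, 2, 3 or 4 gave 3, 17, 10 and 7 calls. Without a filter on low values Rpsa alone was called.

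**Figure D3:**
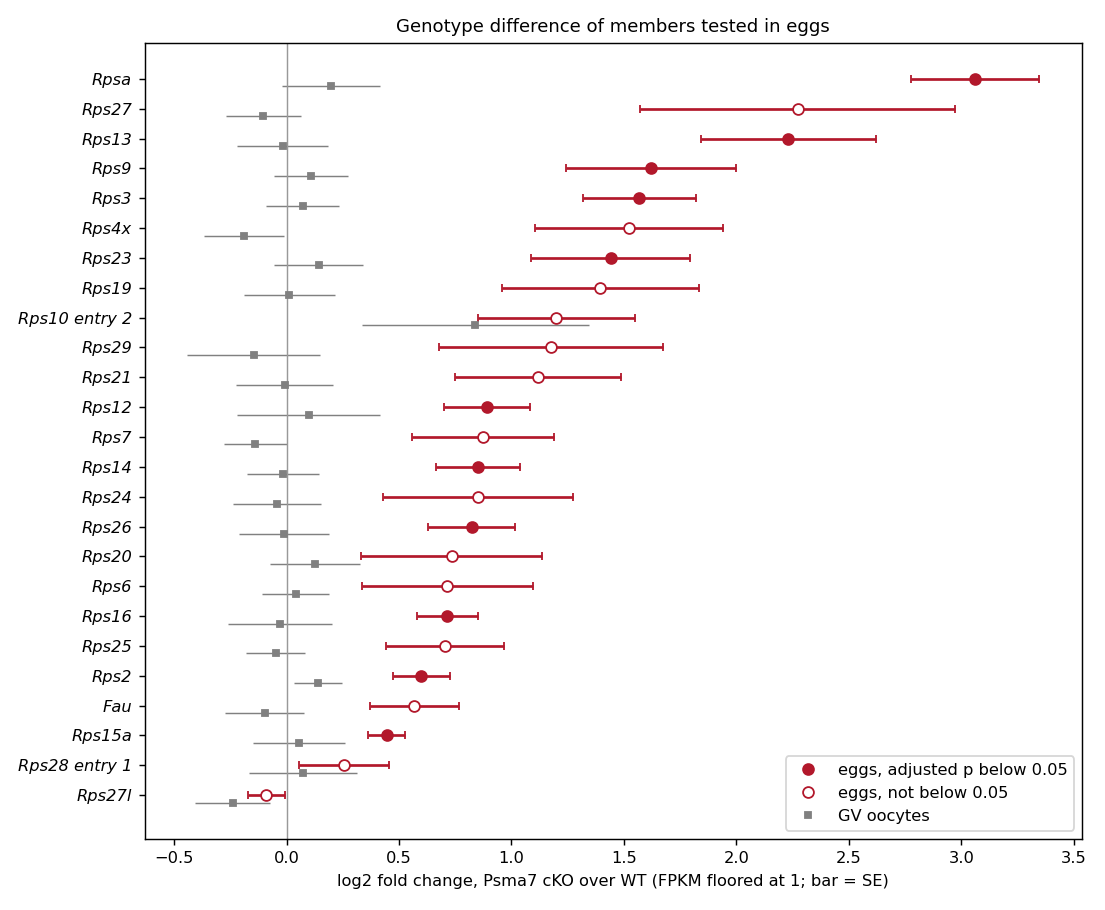
Log2 fold change of Psma7 cKO over WT for 25 of the 28 members tested in eggs (circles, filled where the limma adjusted p was below 0.05, with SE bars) and for the same members in GV oocytes (grey squares). Filled circles mark 11 members, from Rps15a at 0.44 to Rpsa at 3.06, while the grey squares stay within 0.25 of 0 except for the second Rps10 entry.

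The study set values below 1 FPKM to 1 and used a threshold of 3-fold, but how replicates were combined is not given in the sources used here. Taken as the ratio of the means of the floored values, with no test, 9 of the 35 member entries were higher in Psma7 cKO eggs and 0 lower. Over all 28618 entries the rule gave 0.584% higher and 0.00699% lower in eggs. Only 9492 of these averaged at least 1 FPKM in eggs. The rest lie at or near the floor and can hardly pass, which lowers the share over all entries. In GV oocytes it gave 0 members in either direction, beside 0.014% higher and 0.0105% lower of all entries. Among the 9 were Rpsa at 8.59-fold, Rps27 at 7.25-fold, Rps13 at 5.27-fold, and Rps9, Rps4x, Rps19 and Rps3 between 3.10-fold and 3.47-fold. Without Psma7 cKO egg replicate 3, 4 members were over 3-fold.

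The 4 Psma7 cKO egg libraries covered a wider range than the 4 WT ones. Over the 25 members that fell in WT, the median level was 10.2%, 10.3%, 7.43% and 11.9% of the GV mean in the WT eggs. In the Psma7 cKO eggs it was 30.8%, 20.3%, 60.6% and 29.96%. These members were chosen as lower in WT eggs, so the WT medians are low by that choice and do not test the genotypes. Among them, Rps18, Rps19, Rps20 and Rps27 had entered the WT test through GV oocytes alone. Replicate 3 was the highest Psma7 cKO egg for 24 of the 25 members, and replicate 2 was the lowest for 17. Psma7 itself was 35.0 FPKM in replicate 3 and 50.3 FPKM in replicate 2, both between the other 2 libraries. The cumulus and granulosa sum was 61.4 to 67.2 FPKM in the Psma7 cKO eggs and 64.5 to 70.5 FPKM in the WT eggs, which overlapped. The meiotic stage of the cells in each egg library was not tested.

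**Figure D4:**
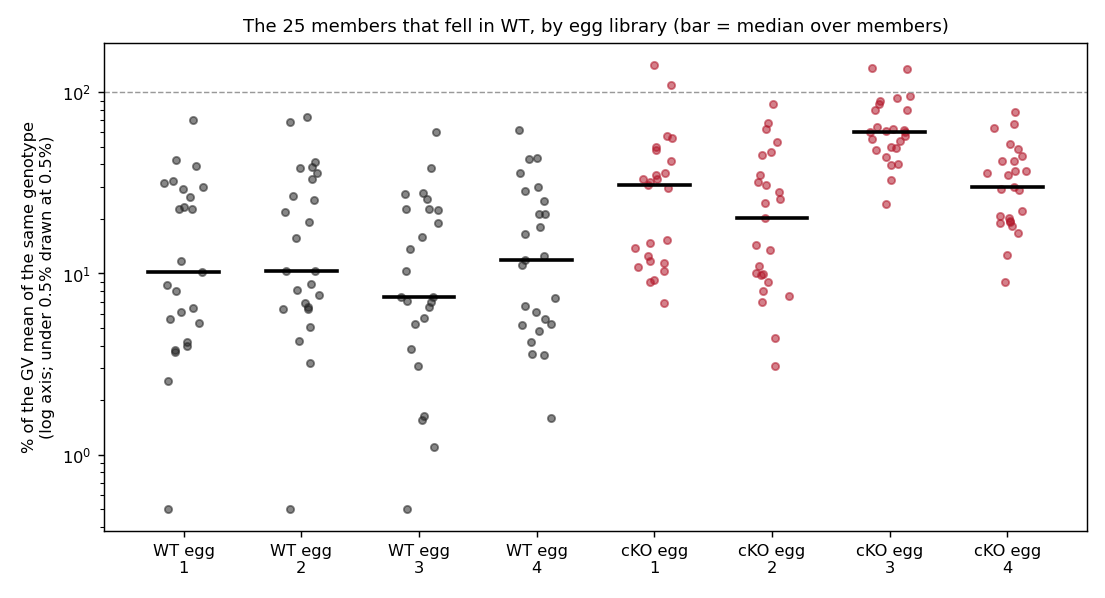
Level in each of the 8 egg libraries as a percentage of the GV mean of the same genotype (log axis) for the 25 members that fell in WT, with a dot per member, a bar at the median and a dashed line at 100%. The bars lie between 7.43% and 11.9% in WT eggs and between 20.3% and 60.6% in Psma7 cKO eggs, with replicate 3 the highest. The members were chosen as lower in WT eggs, so the WT bars are low by that choice.

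The test of whether maturation changed a member by a different amount in the genotypes was the genotype by stage interaction over all 16 libraries. It called 3 of 29 members higher and 0 lower, compared with 1.07% and 0.188% of 10615 entries. At an unadjusted p below 0.05, 17 members were higher, beside 12.7% of all entries, and the median was 0.87, beside 0.03. Rpsa had a value of 2.86 (SE 0.39, 95% interval 2.04 to 3.68, limma adjusted p = 0.00853), which means that its fall was smaller by that amount on the log2 scale in Psma7 cKO. Rps13 had 2.25 (SE 0.48, adjusted p = 0.0324) and Rps3 had 1.5 (SE 0.32, adjusted p = 0.0324). Rpsa was called in all 16 fits that left out 1 library, and Rps13 and Rps3 in 7 of them each. Without Psma7 cKO egg replicate 2, 10 members were called. Without WT GV replicate 1, 3 or 4, Psma7 cKO GV replicate 1, 2 or 3, or WT egg replicate 1, 3 or 4, only Rpsa was called.

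The paralogues Rps27 and Rps27l encode closely related proteins that can take the same place in the subunit, and Rps27l is known as a p53 target. In GV oocytes Rps27l was 75.1, 78.9, 117 and 81.4 FPKM in WT and 75.3, 65.0, 62.4 and 94.8 FPKM in Psma7 cKO, a log2 fold change of -0.24 (SE 0.16, limma adjusted p = 0.651). In eggs Rps27l was 316, 329, 264 and 289 FPKM in WT and 257, 292, 290.4 and 283 FPKM in Psma7 cKO. Every egg library was above every GV library in both genotypes. The rise was 1.79 on the log2 scale in WT (SE 0.14, adjusted p = 4.95e-07) and 1.93 in Psma7 cKO (SE 0.13, adjusted p = 2.95e-06).

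Rps27 fell in the same libraries. It was 27.2, 27.7, 28.0 and 41.1 FPKM in Psma7 cKO GV oocytes and 4.26, 0.954, 15.2 and 8.99 FPKM in Psma7 cKO eggs, a log2 fold change of -2.63 (SE 0.71, limma adjusted p = 0.00757). In eggs the genotypes overlapped for Rps27 through Psma7 cKO replicate 2, which was below the highest WT egg, and the exact permutation test gave p = 0.143. Rps27l did not differ detectably between genotypes in eggs, with -0.09 (SE 0.08, adjusted p = 0.492).

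Rps4x, the X-linked gene of a body protein, was 101, 93.3, 141 and 104 FPKM in WT GV oocytes and 105, 86.5, 71.2 and 125 FPKM in Psma7 cKO GV oocytes. In eggs it was 7.10, 8.35, 6.20 and 5.74 FPKM in WT and 14.4, 9.72, 48.1 and 21.5 FPKM in Psma7 cKO. The eggs did not overlap, although the limma test did not pass (log2 fold change 1.52, SE 0.42, adjusted p = 0.0553). Its related entry Rps4l, annotated as a transcribed processed pseudogene, was at most 0.463 FPKM in any library for one entry and was 0 in all libraries but 1 for the other.

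Fau encodes a ubiquitin-like protein fused to the small subunit protein eS30, which is cleaved off. It was 61.1, 53.0, 83.1 and 66.7 FPKM in WT GV oocytes and 60.7, 54.9, 49.0 and 84.1 FPKM in Psma7 cKO GV oocytes. In eggs Fau was 21.4, 25.1, 18.1 and 23.7 FPKM in WT and 29.7, 29.03, 49.7 and 26.0 FPKM in Psma7 cKO. All Psma7 cKO eggs were above all WT eggs, but the limma test did not pass (log2 fold change 0.57, SE 0.20, adjusted p = 0.0985). Eggs had 33.5% of the GV mean in WT and 54.1% in Psma7 cKO.

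The members that rose or kept their level changed the makeup of the set. Rps15a, a body protein, was 11.4, 9.66, 16.0 and 13.0 FPKM in WT GV oocytes and 28.2, 29.6, 24.4 and 25.6 FPKM in WT eggs, a log2 fold change of 1.12 (limma adjusted p = 3.42e-05). In Psma7 cKO it was 13.3, 11.8, 9.47 and 18.1 FPKM and 39.2, 36.0, 37.4 and 34.0 FPKM, a change of 1.51 (adjusted p = 5.67e-05). All eggs were above all GV oocytes, and all Psma7 cKO eggs were above all WT eggs. The first Rps28 entry, a head protein near the mRNA exit, rose by 0.56 in WT (adjusted p = 0.0398) and by 0.75 in Psma7 cKO (adjusted p = 0.0117). The WT call for Rps28 was present in 3 of the 8 fits that left out 1 library.

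Rps2, which lies at the mRNA entry, was 267, 218, 284 and 269 FPKM in WT GV oocytes and 314, 335, 296 and 249 FPKM in WT eggs, which overlapped (log2 fold change 0.20, limma adjusted p = 0.123). It was 313, 285, 247 and 298 FPKM in Psma7 cKO GV oocytes and 528, 487, 436 and 365 FPKM in Psma7 cKO eggs, a rise of 0.66 (adjusted p = 0.00115) without overlap. Rps2 and Rps27l together made up 18.6% of the members' summed FPKM in WT GV oocytes and 67.7% in WT eggs. In Psma7 cKO these shares were 19.1% and 53.7%. The number of member entries with a mean of at least 10 FPKM went from 25 in GV oocytes of either genotype to 17 in Psma7 cKO eggs and 12 in WT eggs.

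The members, including those described above but without the paralogue entries Rps27l and Rps4l, were also counted by position in the subunit. Among 13 proteins of the head, 11 were tested in eggs. Of these, 4 were higher in Psma7 cKO, beside 6.53% of all entries, with a median log2 fold change of 0.92 beside 0.07. In WT maturation 11 of 12 fell and Rps28 rose, where 52.4% of all entries were called lower and 26.1% higher. In Psma7 cKO 8 of 12 fell and 1 rose, beside 51.0% and 23.0%. Among 18 proteins of the body and platform, 17 of which were in the table, 16 were tested in eggs. Of these 16, 8 were higher in Psma7 cKO, beside 6.53% of all entries, with a median of 0.86 beside 0.07. In WT 14 of these 16 fell and 1 rose, and in Psma7 cKO 14 fell and 2 rose. The shares of all entries are those given for the head. Rps18, Rps19 and Rps20 of the head and Rps27 of the body entered the WT test through GV oocytes alone, so they had to fall. Rps18 did so in Psma7 cKO too. Rps19, Rps20 and Rps27 entered the egg test through Psma7 cKO alone, and none of them was called. In GV oocytes 0 members of either set were called. The first Rps10 entry, the second Rps28 entry and both Rps4l entries were among those too low to be tested in any comparison, Rps15 was tested in GV oocytes only, and Rps18 was not tested in eggs.

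Members called higher in Psma7 cKO eggs included ones with and without a long pyrimidine run at the start. Of 12 tested members with a run of at least 7, 4 were called, with a median log2 fold change of 0.84. Of 10 with a shorter run, 6 were called, with a median of 1.42. Of all entries 6.53% were called higher, with a median of 0.07. The medians of the members with a long and a shorter run in WT maturation were -1.91 and -3.35, beside -0.44 over all entries. The difference between these sets was not tested. For 6 members, among them Rps15, Rps18, Rps20, Rps23 and Rps28, near-identical copies summed to more FPKM than the member itself in WT GV oocytes, and reads shared between them could have been assigned either way. With copies added, Rps20 (log2 fold change 1.89, adjusted p = 0.0449) and Rps27 (2.56, adjusted p = 0.0439) passed in eggs, and the fall of Rps18 in WT, -0.97, became -0.04 (adjusted p = 0.873). Rpsa had 12 such copies in the annotation, of which 0 were in the table.

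The factors that assemble the 40S subunit were counted as a list. Of 55 such genes, 51 were in the table and 42 were tested in eggs, where 3 were higher in Psma7 cKO and 0 lower, beside 6.53% and 1.49% of all entries, with a median of 0.09 beside 0.07. These were Emg1, an 18S rRNA methyltransferase (1.70), Rcl1 (1.06) and Noc4l (0.51). During WT maturation 24 of 47 fell and 15 rose, beside 52.4% and 26.1% of all entries. The largest falls were those of Fcf1 (-5.58), Emg1 (-3.98), Pwp2 (-3.60) and Nop9 (-3.29). In Psma7 cKO 28 of 50 fell and 10 rose, beside 51.0% and 23.0%. The interaction called Rcl1 alone of 49 tested, at 1.14, beside 1.07% of all entries called higher, and in GV oocytes 0 of 50 were called.

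Of 18 other mRNAs of the TOP class, 17 were in the table and 14 were tested in eggs, where Eef1b2, a translation elongation factor subunit, was higher in Psma7 cKO (0.53) and 0 were lower. Their median was 0.26, beside 0.07 over all entries, of which 6.53% were higher. In WT maturation 9 of 17 fell and 6 rose, beside 52.4% and 26.1% of all entries, and the median was -0.44, as over all entries. The largest falls were in Rps27a (-5.35), Eef1d (-4.59), Eef1a1 (-3.76) and Eif3h (-3.43). In Psma7 cKO 9 of 17 fell and 8 rose, beside 51.0% and 23.0%, and 0 were called in GV oocytes or by the interaction. Among 6 regulators of TOP mRNAs, 5 were tested in eggs. The first Mtor entry, the kinase of growth signalling, was lower in Psma7 cKO (-0.46), beside 1.49% of all entries called lower. Rptor, its partner, fell in maturation in both WT (-1.07) and Psma7 cKO (-1.01), and 0 of the 6 were called in GV oocytes.

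The large subunit was set beside the small one. Its 50 gene names had 51 entries. In eggs 11 of 43 tested were higher in Psma7 cKO and 0 lower, beside 6.53% and 1.49% of all entries. The median log2 fold change was 0.80, beside 0.88 for the small subunit and 0.07 over all entries. The largest were Rpl23a (3.20), Rpl7a (2.40), Rpl7 (1.94) and Rpl18 (1.73). In WT maturation 40 of 47 fell, with a median of -2.36, and in Psma7 cKO 36 of 47 fell, with a median of -1.51. Of all entries 52.4% were called lower in WT and 51.0% in Psma7 cKO. The interaction called Rpl5 alone of 47 (1.09), beside 1.07% of all entries called higher, and in GV oocytes 0 of 47 were called. Whether the subunits differed was not tested. Of the 15 oocyte genes outside the ribosome, 3 were higher in Psma7 cKO eggs and 0 lower by limma, beside 6.53% and 1.49% of all entries. They had 11 positive values and a median of 0.14, beside 0.07 over all entries. The 3 called were Figla (1.57, adjusted p = 0.0311), Zp3 (1.20, adjusted p = 0.0203) and Ooep (0.53, adjusted p = 0.0499).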

How the data were processed

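The authors deposited 1 table of FPKM values, fragments per gene scaled by transcript length and by the library's mapped fragments. The submitters' processing notes name TopHat2 2.1.1, Cufflinks 2.2.1 and mm10. The gene annotation is not given in the sources used here. Columns were matched to samples through the labels, and 0 columns were left over.

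FPKM are not counts, so no count model was used. Values below 1 FPKM were set to 1, as in the study, and log2 values were fitted on the whole table in limma 3.58.1 (R 4.3.3), with the empirical Bayes step given a trend on mean level. Entries with a mean of at least 1 FPKM in the libraries compared were tested, and Benjamini-Hochberg adjusted p below 0.05 was the threshold. Fold changes of low genes are understated on this scale. Single values were also compared by two-sided exact permutation tests (70 arrangements). The limma scripts were tested on simulated data. Permutation tests used numpy 2.4.6 and plots matplotlib 3.10.9, in Python 3.11.15.

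Every value was given for Rpsa, Fau, Rps27, Rps27l and Rps4x, while Rps4l, which was low in all libraries, was summarised. Per comparison, values were also given for the 5 members with the largest absolute log2 fold change past the threshold. Where none passed, the largest 3 were given as values. Other lists gave at most 4 genes by the same order. Some members that this rule selects are counted but not reported here. Rps15a and Rps2 were described after their values were seen. The members and lists were chosen with earlier results of these data known. Near-identical copies were annotated genes with at least 95% identity over at least 200 bases of the transcript. The settings varied were the floor (0.1 FPKM, or none with 1 FPKM added instead), median-ratio rescaling, the filter (none, or a mean of 5 FPKM), no trend, a replicate block, entries summed by name, copies summed (added after seeing the data), all 16 libraries in 1 fit and each library left out.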

Additional observations from a re-analysis of the deposited data

Results flagged for a closer look

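In 51 groups of 4 libraries examined for a value far from the rest (above Dixon's 95% critical value), 3 had one, and chance gives about 1 in 20. Fau was 49.7 FPKM in Psma7 cKO egg replicate 3. Rps27 was 41.1 FPKM in Psma7 cKO GV replicate 4, and Rps27l was 117.0 FPKM in WT GV replicate 3. Each was the highest value of its group, and those libraries were the highest of their groups for most members.

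The change from GV oocyte to egg differed between genotypes for Rpsa by 2.86, for Rps13 by 2.25 and for Rps3 by 1.5 on the log2 scale, by the limma interaction over 16 libraries. In each case the fall was smaller in Psma7 cKO.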

How the results depend on the processing

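Of 764 alternative values, 685 were classed as unchanged and 1 reversed. The reversed value was the GV difference of Rps15, which was 0.28 on the log2 scale with near-identical copies summed. For a log2 fold change, unchanged meant the same direction and side of the threshold. Counts and medians of members were included and could shift somewhat. In settings with all libraries kept, counts of 8 to 16 members higher in Psma7 cKO eggs were classed as unchanged, beside 12 in the main fit. The number of members higher in Psma7 cKO eggs was 1 with no filter on low values and 1 to 17 with 1 library left out. The interaction gave 1 with no filter and 1 to 10 with 1 library left out. These libraries are named beside the results. Over 2-fold in place of 3-fold, 14 members were higher in eggs, and with 1 library left out the 3-fold count was 4 to 11. The labels give samples with the same replicate number no link beyond that number. Their deviations correlated from -0.496 to 0.285 over 10615 entries, which cannot show whether they shared a batch. With the replicate block 3 members were higher in eggs (Rps2, Rps3 and Rpsa) and 1 by the interaction (Rpsa). The causes of these changes were not tested. Depth limits entries near 1 FPKM, and FPKM gave no counting intervals.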
